A study of Mus musculus with 12 samples.

Results

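Single-exon circular RNAs (circRNAs) are closed RNA loops in which the end of 1 exon is joined to its own start. In the livers measured here they were the back-splice junctions, listed by chromosome, start and end, whose 2 ends are the start and the end of one and the same annotated exon of a protein-coding gene (GENCODE M21, mouse assembly GRCm38). Of 16445 circRNAs, 660 met this definition (4.01%). They came from 607 host genes and carried 5.74% of the summed circRNA signal. Most host genes had 1 such circRNA (557 genes), 49 had 2, and Erc1 had 5. The choice of members used exon positions only and no measured level.

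Each of the 12 libraries was made from the liver of 1 mouse (strain C57BL/8 in the labels). Carbon tetrachloride (CCl4), a toxin that scars the rodent liver, was injected into all 12 mice 2 times a week for 8 weeks, at 10% and 10 µl for every 10 g of mouse. The 6 Control mice had CCl4 alone, and the 6 PZH mice were dosed daily, from week 2 to week 8, with Pien Tze Huang (PZH), a medicine of the Chinese tradition, at 25 mg/ml. The labels give no age. Livers never exposed to CCl4 were not analysed here, and each difference below is that of CCl4 with PZH from CCl4 alone. Levels are in SRPBM, the unit named by the deposited table and generally used for back-spliced reads scaled to the size of the library. The libraries summed to 28922 to 41080 SRPBM over all circRNAs, with smallest values above 0 of 0.584 to 0.719. As a check of the labelled tissue, 69 of 98 genes of hepatocyte metabolism had a circRNA in the table, although Arg1, Cyp7a1 and Otc, among others, had none. A 0 in this table was read only as listed at 0, because 7 of the 41 single-exon circRNAs with a mean of at least 10 SRPBM were listed at 0 in some library. In bulk liver, fewer cells of a type and less RNA per cell cannot be told apart.

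CircRNAs form when the spliceosome joins a downstream 5′ splice site to an upstream 3′ splice site, an event called back-splicing. Such RNAs lack free ends, resist exonucleases and can outlast the linear RNA of their gene. A single exon can be closed on itself when it is long enough for both of its splice sites to be used at once, and pairing of repeats in the flanking introns is known to help. Several well-studied circRNAs are of this kind, among them circHIPK3 and circZNF609, whose mouse counterparts were both present.

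The back-splice junction is what identifies such a circRNA, since the rest of its sequence is shared with the linear transcript. The junctions below are shown for the most abundant circRNAs with wholly coding exons and for 1, that of Smyd4, with the smallest p in the group comparison. In each, the last 15 bases of the exon are in lower case and the first 15 bases of the same exon are in capitals, read 5′ to 3′ on the strand of the gene. They were read from the GENCODE M21 transcripts, with exon coordinates on GRCm38.
Nfix exon 2, chr8:84771784-84772315, minus strand: ttgtccacactccggGATGAGTTCCACCCG
Thrb exon 4, chr14:17963061-17963321, plus strand: agaagaaatgtaaagAAAATGGCCTTCCAG
Cdyl exon 2, chr13:35815909-35816575, plus strand: ctgttaatggaaaagGTGGAAAGTATCGTT
Med13l exon 2, chr5:118593333-118593570, plus strand: atcatgaactgcaggGCTGAACTCACAGGA
Insr exon 2, chr8:3258383-3258934, minus strand: gtcattgtcagaaagTGTGCCCTGGTATGG
Eif3a exon 20, chr19:60764032-60764233, minus strand: attcagaagacccagGTGGATGGAGAGAGA
Smyd4 exon 5, chr11:75390072-75391227, plus strand: ccatatgtcacacagGCATGTCTTAAAGAC
All these exons end in G. Over all internal single-exon circRNAs 86.2% of the exons ended in G, against 83.4% of the other internal exons of the same transcripts with at least the length of the shortest member.

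The exons that closed on themselves were long and lay early in their genes. Their median length was 345.5 nt, with a range from 137 nt (Rreb1 exon 8) to 5772 nt (Tcf20 exon 2). Other internal exons of the same transcripts (7654 exons) had a median of 132 nt, and 53.4% of them were shorter than 137 nt. The table as a whole held no circRNA with a genomic span under 137 nt, while 89 multi-exon circRNAs had less than 137 nt of annotated exon between their ends. For that reason the features were compared with the 3563 other internal exons of at least 137 nt, which had a median of 178 nt. Exons longer than 1000 nt made up 12.6% of the single-exon circRNAs (83 exons) and 1.66% of these other exons (59 exons). Leaving the member exons out of the comparison lowers the second share. These are descriptions over exons, which are not replicates, and no test was made over them.

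**Figure D1:**
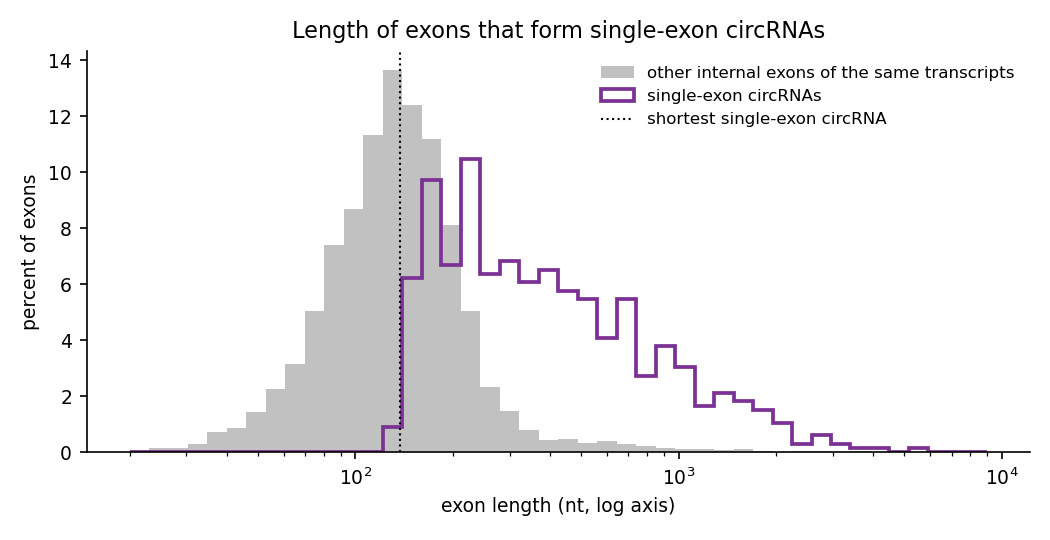
Percent of exons (vertical axis) by exon length in nt (horizontal log axis) for the internal exons of single-exon circRNAs (outline, n = 659) and for the other internal exons of the same transcripts (grey, n = 7654). The outline starts at 137 nt (dotted line), to the right of 53.4% of the other exons, and reaches past 1000 nt.

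Exon 2 was the commonest position, with 242 of the 660 circRNAs (36.7% of the internal ones), against 4.10% of the comparison exons. The exon held the start codon in 156 cases (23.7% against 2.41%). Where a member is exon 2 or holds the start codon, its transcript adds no other such exon to the comparison. Leaving the members out thus lowers the comparison shares of exon 2 (146 exons) and of the start codon (86 exons). Another 451 members lay wholly within the coding sequence (68.4% against 95.1%). Wholly coding exons with a length divisible by 3, which could keep the reading frame around the loop, numbered 168 in protein-coding transcripts. Of these, 164 had no stop codon in that frame around the loop. Only a codon that spans the junction could be a stop there, since the others are codons of the annotated reading frame. A high number is therefore nearly fixed in advance and is no result about these exons. Lengths divisible by 3 were not more frequent than in comparison exons (34.9% against 39.6%), and median GC content was 49.5% against 50.9%.

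The introns on both sides were long. The upstream intron had a median of 8483 nt and the downstream intron 7299 nt, against 1788 and 1639 nt for the comparison exons. Introns near the start of a gene tend to be long, so the same values were taken by position. For exon 2, the upstream intron had a median of 17250 nt in the 242 circRNAs and 4938 nt in 146 comparison exons. For exon 3 or later the medians were 4215 and 1760 nt, and those of the downstream intron were 4550 and 1597 nt. Intron sequence was not analysed here.

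Of the 660 members, 196 were above 0 in at least 6 libraries (29.7%, against 23.5% of the whole table), 61 in all 12, and 272 in 1 library only. The 61 carried 67.4% of the single-exon signal. Within each library, single-exon circRNAs were more often above 0 than circRNAs of 2 exons (35.0% ± 3.80 against 32.9% ± 3.25, SD, n = 12; higher in 11 of 12 libraries, exact sign-flip permutation test, adjusted p = 0.00146). The gap to circRNAs of 5 or more exons was wider (25.4% ± 3.67; higher in 12 of 12 libraries, adjusted p = 0.000651). The mean level per circRNA was 3.11 ± 0.365 SRPBM, 1.95-fold that of circRNAs of 5 or more exons (12 of 12 libraries, adjusted p = 0.000651 in the exact permutation test), and the log2 difference of 0.97 became 0.34 among circRNAs above 0 in at least 6 libraries. Against circRNAs of 2 exons it was 1.10-fold higher in 12 of 12 libraries (log2 0.14, adjusted p = 0.000651 in the same permutation test). Among circRNAs above 0 in at least 6 libraries the log2 difference from circRNAs of 2 exons was 0.014 (exact permutation p = 0.356), and the difference in the share above 0 was 2.14 percentage points (adjusted p = 0.0501, exact permutation test), so neither passed there. A larger part of the single-exon circRNAs than of those of 2 exons was above 0 in at least 6 libraries (29.7% against 26.6%). The same circRNAs recur in every library, so these p-values measure agreement between libraries and not a difference over circRNAs. The median circRNA averaged 0.342 SRPBM among single-exon circRNAs, 0.323 among those of 2 exons and 0.202 among those of 5 or more.

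A small number of loops carried much of the signal. The 10 most abundant held 37.4% of it, and the first of them, exon 2 of Nfix, held 8.70%. This circRNA of nuclear factor I X, a transcription factor, is 532 nt long. It ranged from 160 to 214 SRPBM in PZH (median 203) and from 123 to 217 in Control (median 161). The groups overlapped, and the log2 fold change of 0.29 ± 0.13 (SE) had an adjusted p of 0.601 in limma. Exon 4 of Thrb, a thyroid hormone receptor that acts in liver metabolism, followed with 141 ± 16.3 SRPBM with PZH and 138 ± 24.0 without (SD, n = 6 each). Exon 2 of Cdyl, which encodes a chromodomain corepressor, was at 79.7 ± 14.8 and 88.0 ± 17.8 SRPBM. Exon 2 of Med13l, a subunit of the Mediator kinase module, was at 75.3 ± 10.9 and 79.4 ± 12.4 SRPBM. In the last 3 the gap between the group means was smaller than the SD of either group.

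The next members in order of abundance have roles in RNA handling and signalling. A 152 nt exon shared by Pabpn1, a nuclear poly(A)-binding protein gene, and the overlapping locus Gm20521 was at 55.7 to 79.1 SRPBM in PZH. In Control it was at 53.7 to 78.0 SRPBM in 5 libraries and listed at 0 in Control 4. Its host could be either gene. Exon 2 of Insr, the insulin receptor, stood at 45.6 ± 3.44 SRPBM in PZH against 44.4 ± 8.31 in Control, a log2 fold change of 0.06 (95% interval -0.25 to 0.37). Exon 20 of Eif3a, a subunit of translation initiation factor eIF3, was at 38.7 ± 9.47 and 48.2 ± 9.17 SRPBM. The 371 nt Clk1 exon, from a kinase that phosphorylates splicing factors, was at 26.5 to 50.3 SRPBM in PZH and 37.0 to 54.4 in Control. That exon is annotated in a transcript without a coding sequence, and its ends also fit 2 neighbouring exons of another transcript. Exon 2 of Nudcd3, which encodes a dynein-associated chaperone, was at 40.8 ± 4.53 and 37.7 ± 6.61 SRPBM. None of the members named here had an adjusted p under 0.05 in limma.

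**Figure D2:**
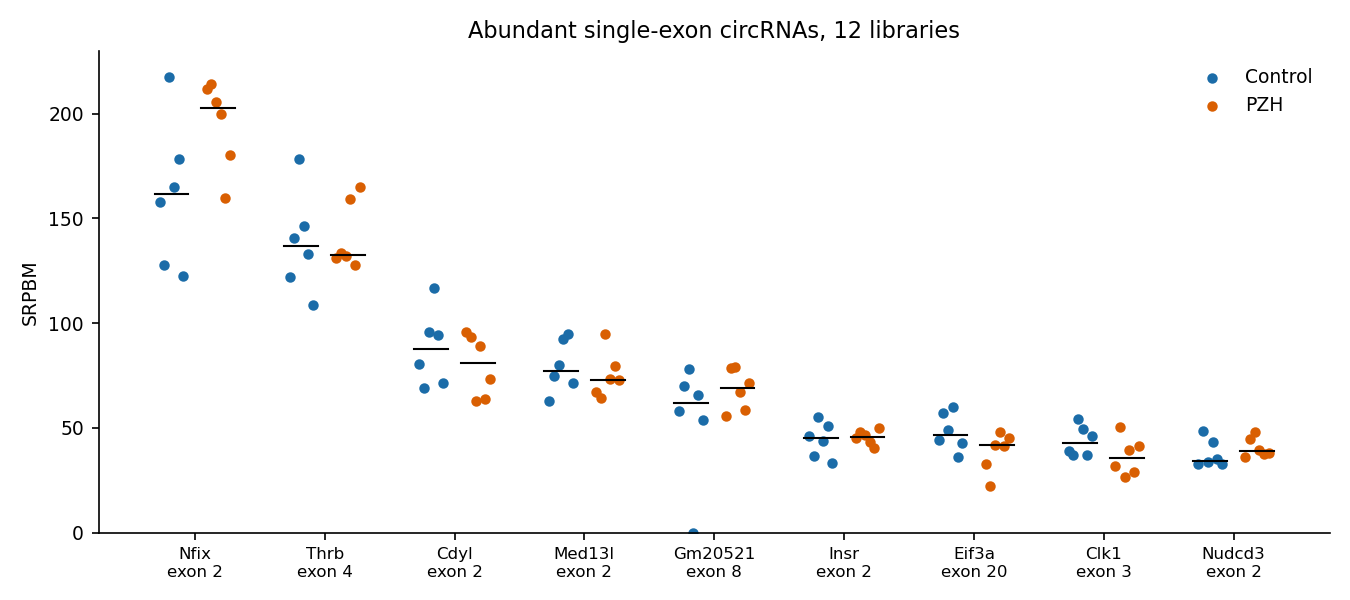
SRPBM (vertical axis) of 9 of the 10 most abundant single-exon circRNAs in each of 6 Control and 6 PZH libraries, with the group median as a bar. Nfix exon 2 reaches 217 SRPBM, the groups overlap in all 9, and 1 Control library of the Gm20521/Pabpn1 exon is listed at 0.

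Abundant single-exon circRNAs were mostly the main circRNA of their gene. Among the 50 highest, 49 were the highest circRNA of their host, 30 carried over 90% of its SRPBM, and 32 were exon 2. The choice of the 50 and the rank within the host both use mean SRPBM, so the choice itself favours high ranks. The same counts for circRNAs of more exons were not taken. Nfix exon 2 held 99.3% of the SRPBM of the 4 Nfix circRNAs. Insr had 10 other circRNAs, the highest of them a single-exon circRNA of exon 3 at 0.875 SRPBM on average, while its exon 2 held 94.8%. Thrb was an exception among the first 4: exon 4 held 74.5%, and a circRNA of 2 exons of Thrb averaged 43.2 SRPBM. Over all members, 162 were the only circRNA of their host and 142 were the highest of several. Both ends were shared with other circRNAs in 65 members and neither end in 319. By contrast, exon 3 of Snrk held 3.89% and exon 6 of Paip2 held 5.28% of the SRPBM of their hosts.

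Neither of the well-known loops named above passed the test. Exon 2 of Hipk3 (1099 nt), which was taken up after its values were seen, was the only circRNA of its gene, with 21.6 ± 5.06 SRPBM in PZH against 24.0 ± 8.03 in Control. Exon 2 of Zfp609 (874 nt) was at 13.5 ± 4.71 and 16.5 ± 5.13 SRPBM. The exons of both hold the start codon.

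Single-exon circRNAs took a smaller share of the circRNA signal in the PZH livers. The share averaged 5.54% ± 0.146 in PZH against 5.96% ± 0.0710 in Control (SD, n = 6 each). The PZH libraries lay between 5.31% and 5.69% and the Control libraries between 5.87% and 6.04%, so the groups did not overlap. The difference of 0.422 percentage points, lower in 6 of 6 PZH libraries, had a p of 0.00216 in the exact 2-sided permutation test, the smallest that 6 against 6 libraries allow, and an adjusted p of 0.00866 over 4 comparisons of this kind. Without the 10 highest single-exon circRNAs the difference was -0.389 points (exact permutation p = 0.00866). The other 3 comparisons did not pass. Summed single-exon SRPBM was 2003 ± 185 in PZH against 2099 ± 297 in Control (adjusted p = 0.506, exact permutation test). The number above 0 was 225 ± 18.4 and 237 ± 30.9 (adjusted p = 0.506, exact permutation test), and the SRPBM-weighted mean exon length was 521 ± 24.5 and 503 ± 28.9 nt (adjusted p = 0.506, exact permutation test).

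Circles of other sizes moved as well. CircRNAs of 2 exons were also at a lower share in PZH (31.8% against 34.6%, groups not overlapping), those of 3 or 4 exons were at 40.3% and 39.6%, and those of 5 or more exons were at 20.1% and 17.6%, groups not overlapping. Ratios of single-exon to other summed SRPBM are given as values, since they were chosen after these shares were seen. The log2 ratio to circRNAs of 2 exons was -2.52 ± 0.0452 in PZH against -2.54 ± 0.0524 in Control (SD, n = 6 each), a difference smaller than the SD of either group. To circRNAs of 3 or 4 exons it was -2.86 ± 0.0498 and -2.73 ± 0.0213. To circRNAs of 5 or more exons it was -1.86 ± 0.0583 and -1.56 ± 0.0715, a separation that the shares already fix.

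**Figure D3:**
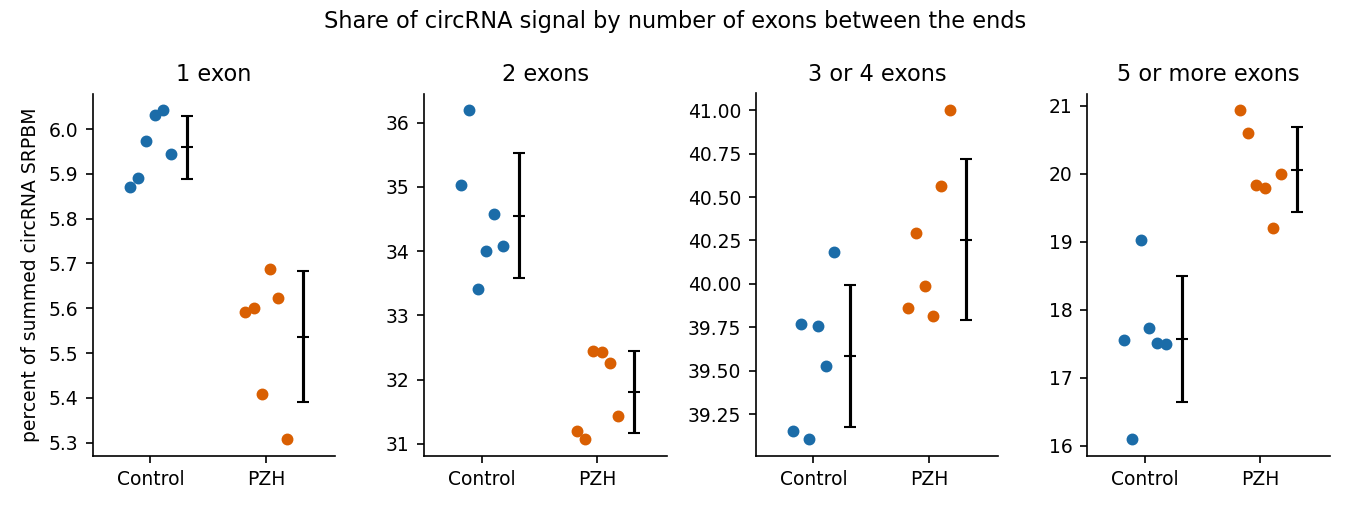
Percent of each library's summed circRNA SRPBM (vertical axes, each with its own range and not starting at 0) on circRNAs with 1, 2, 3 or 4, and 5 or more exons between their ends. Points are 6 Control and 6 PZH libraries and bars are the mean and SD; the PZH points lie below all Control points for 1 and 2 exons and above them for 5 or more exons.

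The lower share was the net of decreases and increases over many members. Of the 660, 370 had a lower share in PZH, adding up to -1.01 points, and 290 had a higher share, adding up to 0.588 points. The 10 largest decreases added up to -0.296 points, beside a net difference of -0.422. Members above 0 in 1 group only, 183 in Control and 140 in PZH, could fall on 1 side only. The same counts over the whole table are not given here. Among the largest single decreases were those of Mob3b exon 2 (-0.0420 points) and Hivep1 exon 2 (-0.0328). Smad1 exon 2 (-0.0317) and Eif3a exon 20 (-0.0315) followed. Nfix exon 2 had the largest increase, 0.0880 points. Exon 2 members together accounted for -0.134 points and members from exon 3 or later for -0.289 points.

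Levels of single members were compared with limma on the whole table, on the log2(SRPBM + 0.636) scale, for circRNAs above 0 in at least 6 libraries. This scale understates changes of low circRNAs. No single-exon circRNA of 196 tested passed an adjusted p of 0.05 in limma, against 0.0517% of all 3870 circRNAs tested that were higher and 0% that were lower. At an unadjusted p under 0.05, 6 members were higher (3.06%, against 4.55% of all circRNAs) and 12 were lower (6.12%, against 3% of all). CircRNAs of 2 exons also had more lower than higher, with 54 and 27 of 1117 tested. Those of 3 or 4 exons had 40 lower and 71 higher of 1711, and those of 5 or more had 8 and 69 of 757. The fold change was positive in 88 members (44.9%, against 54.3% of all), and the median log2 fold change was -0.11, against 0.06 over all circRNAs tested. Without PZH 5 the median of the members was 0.0038 with 51.0% positive (56.4% of all), without Control 4 it was -0.0158 with 49.2% positive, and without Control 5 it was -0.0122 with 48.9% positive. It was between -0.0478 and -0.0373 without PZH 1, PZH 3, PZH 4 or Control 3. By number of exons, the median was -0.03 for 2 exons, 0.08 for 3 or 4 exons and 0.21 for 5 or more. The other 464 members did not reach 6 libraries and were not tested. Over all 660, 140 were above 0 in PZH libraries only (21.2%, against 27.7% of the whole table) and 183 in Control libraries only (27.7%, against 25.4%).

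**Figure D4:**
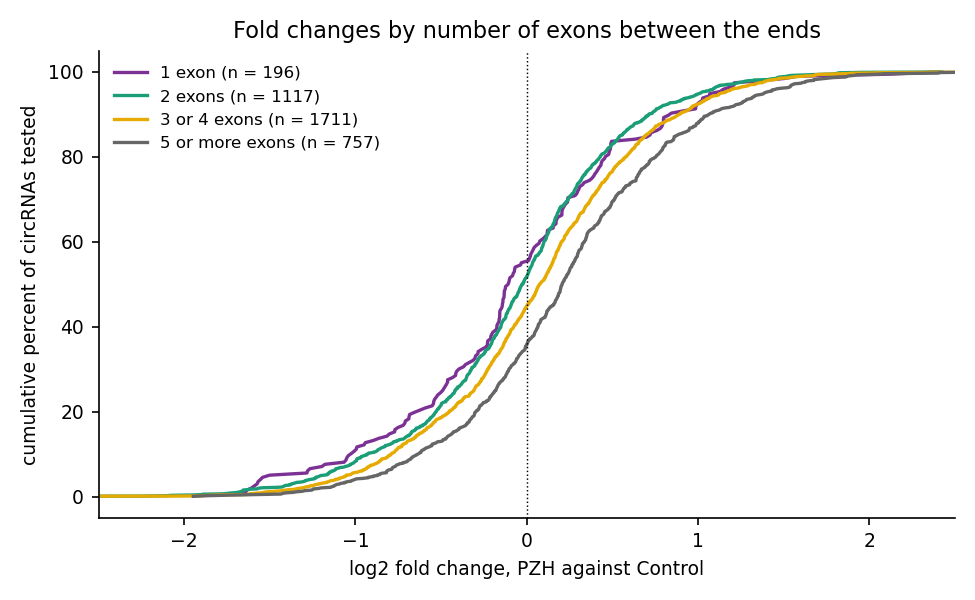
Cumulative percent of circRNAs tested (vertical axis) by log2 fold change of PZH against Control (horizontal axis) for circRNAs of 1, 2, 3 or 4, and 5 or more exons. The curves for 1 and 2 exons run close to each other, with medians of -0.11 and -0.03, and the curve for 5 or more exons lies to the right with a median of 0.21.

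Several members had lower levels in PZH at an unadjusted p under 0.05. Mob3b exon 2, the only circRNA of a gene of the MOB kinase activator family, was at 8.18 to 39.4 SRPBM in PZH (median 16.2) and 19.7 to 54.3 in Control (median 29.2). PZH 2 was the highest of its group, and the other 5 PZH libraries lay below all Control libraries. Its log2 fold change was -0.94 ± 0.30 (SE), with an adjusted p of 0.454 in limma, and it passed (adjusted p = 0.0140 in limma) when only circRNAs above 0 in all 12 libraries were tested. Exon 2 of Smad1, a transducer of bone morphogenetic protein signals, was at 27.2 ± 4.98 SRPBM in PZH against 37.5 ± 5.38 in Control (adjusted p = 0.551 in limma). Exon 2 of Hivep1, a zinc finger transcription factor gene, was at 9.77 to 11.4 SRPBM in 5 PZH libraries, listed at 0 in PZH 6, and at 10.2 to 31.4 in Control (adjusted p = 0.504 in limma).

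Paip2 exon 6, from a gene whose protein binds poly(A)-binding protein and represses translation, was the 1 member with all PZH libraries below all Control libraries (0.181% of all circRNAs tested were so). It was at 1.77 to 4.18 SRPBM in PZH (median 3.48) and 4.53 to 10.3 in Control (median 8.47), with a log2 fold change of -1.20 ± 0.38 (SE) and an adjusted p of 0.454 in limma. Supt5 exon 11, from a transcription elongation factor gene, was above 0 in 4 of 6 PZH libraries with a highest value of 5.05 SRPBM, and at 3.47 to 8.47 in Control. Clasp1 exon 2, from a microtubule-binding protein gene, was above 0 in 3 PZH libraries and in all 6 Control libraries (1.26 to 6.36 SRPBM). Ercc6 exon 5, from a gene of transcription-coupled DNA repair, was above 0 in PZH 6 alone among PZH libraries and in 5 Control libraries. The adjusted p of these 3 was 0.551 to 0.578 in limma.

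In the other direction, Smyd4 exon 5, the only circRNA of a gene for a SET and MYND domain protein, had the smallest p of all members. It was at 4.85 to 7.21 SRPBM in PZH (median 6.06), while in Control 3 libraries were listed at 0 and the others were at 1.06, 1.74 and 3.11. All PZH libraries were above all Control libraries, as in 0.491% of all circRNAs tested. The log2 fold change was 2.40 ± 0.59 (SE), with an unadjusted p of 0.000587 and an adjusted p of 0.263 in limma.

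Exon 2 of Dlc1, which encodes a GTPase-activating protein, was at 0.976 to 8.36 SRPBM in PZH and above 0 only in Control 4 (2.81 SRPBM) among Control libraries. Its log2 fold change was 2.12 ± 0.66 (SE), with an adjusted p of 0.454 in limma. Dlc1 is on a list of 18 genes that mark hepatic stellate cells, the collagen-making cells of the liver, of which 4 had a circRNA in the table. Acta2, Des, Lrat, Pdgfra and Pdgfrb were among the 14 without one. The 14 circRNAs of the list other than Dlc1 exon 2 summed to 7.98 to 14.6 SRPBM in PZH and 1.78 to 6.79 in Control, and their part in the Dlc1 value and in the share of single-exon circRNAs was not tested. Circular RNAs of the macrophage list (13 of 30 genes) summed to 101 to 165 SRPBM in PZH and 85.2 to 171 in Control. Those of the endothelial list (17 of 25 genes) summed to 90.3 to 111 and 86.1 to 138 SRPBM, and those of the cholangiocyte list (6 of 16 genes) to 70.1 to 102 and 57.8 to 103 SRPBM.

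The other members with the smallest unadjusted p on the higher side were mostly second exons. Exon 2 of Plce1, a phospholipase C gene, was at 4.58 to 12.8 SRPBM in PZH and up to 6.56 in Control. Exon 2 of Aftph, a gene of clathrin-dependent traffic, was at 3.61 to 7.64 SRPBM in PZH and up to 6.05 in Control. Exon 2 of Arid1b, a SWI/SNF chromatin remodelling subunit, was at 1.45 to 7.12 SRPBM in PZH and up to 4.09 in Control. Exon 2 of Kat6b, a histone acetyltransferase gene, had a median of 7.30 SRPBM in PZH and reached 7.48 in Control. Exon 3 of Snrk, a kinase gene, was at 2.67 to 5.99 SRPBM in PZH and up to 4.96 in Control. Each was listed at 0 in at least 1 Control library, the groups overlapped in all 5, and their adjusted p was 0.601 to 0.686 in limma.

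**Figure D5:**
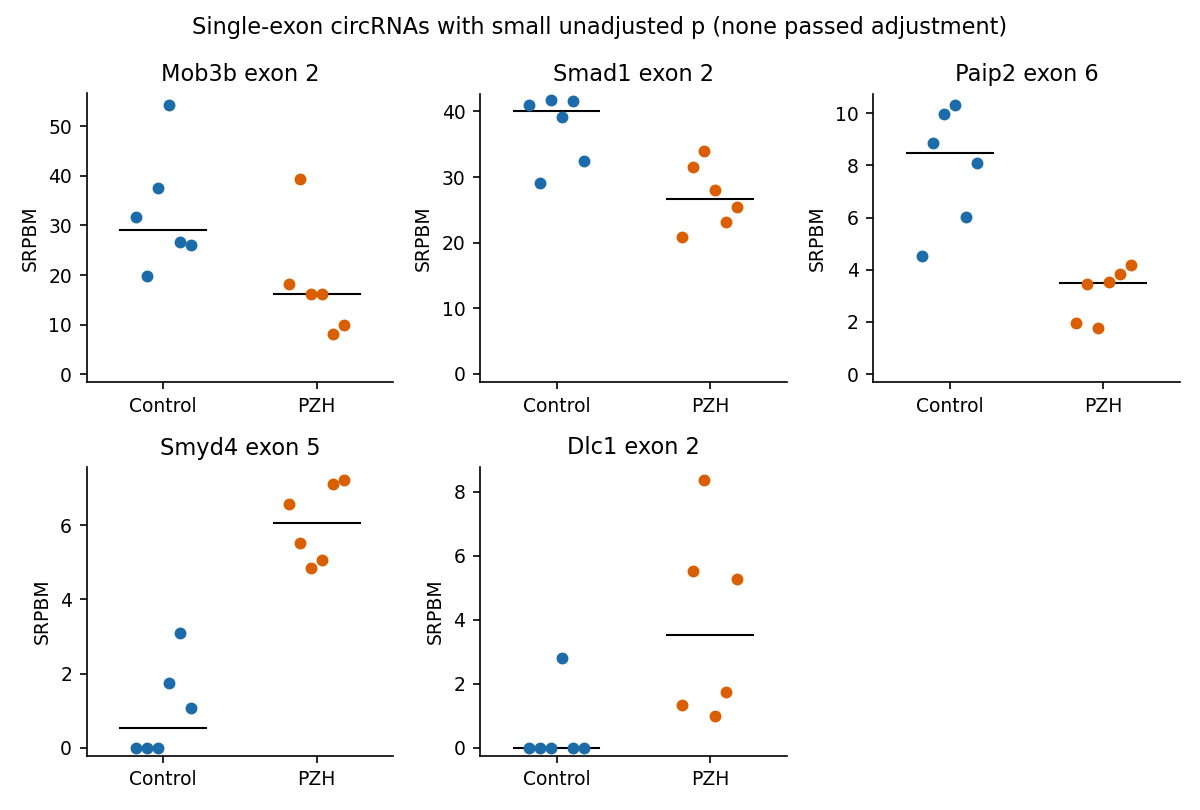
SRPBM (vertical axes, each with its own range) in 6 Control and 6 PZH libraries for the single-exon circRNAs of Mob3b, Smad1, Paip2, Smyd4 and Dlc1, with the group median as a bar. Paip2 and Smyd4 show no overlap between groups, 1 PZH library lies high for Mob3b, and none of the 5 passed the adjusted threshold.

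By function of the host gene, no list had a member past the adjusted threshold in limma. None of these lists was tested as a set. Their values stand beside a median of -0.11 with 44.9% positive for the 196 single-exon circRNAs tested. Over all circRNAs tested the median was 0.06 with 54.3% positive. Counts of positive fold changes were the same under both other scalings for every list given here. Of 27 single-exon circRNAs of RNA processing and RNA-binding genes, 8 were tested and 0 of 8 had a positive fold change (median -0.35). They included Paip2, Qk (-1.06), Mbnl2 (-0.80), Eif4enif1, Eif3a, Tnrc6a and Rbfox2. Exon 2 of Mbnl2, a splicing regulator of the muscleblind family, was at 8.67 to 14.4 SRPBM in Control and at 7.20 to 14.1 in 5 PZH libraries, and was listed at 0 in PZH 5. In the ubiquitin system, 1 of 6 tested members had a positive fold change (median -0.21). There, exon 4 of Fbxw7, the substrate receptor of an SCF ligase, was at 29.2 ± 8.61 SRPBM in PZH against 31.7 ± 8.55 in Control. The Cul5 exon, from a cullin scaffold gene, was listed at 0 in PZH 3 and in Control 2 and otherwise was at 6.00 to 20.2 SRPBM.

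Hepatocyte metabolism had 19 members, of which 7 were tested and 3 had a positive fold change (median -0.23). Besides Insr these included Adk, adenosine kinase (-1.28), and Gbe1, the glycogen branching enzyme (-1.61). Among 33 members of chromatin and transcription genes, 15 were tested and 9 had a positive fold change (median 0.17). Exon 3 of Med13, a paralog of Med13l, was at 7.59 to 21.9 SRPBM in PZH, and in Control was listed at 0 in Control 2 and otherwise at 13.2 to 22.3. Protein kinases had 24 members, 8 of them tested and 6 with a positive fold change (median 0.17). The zinc finger list had 20 members, 7 of them tested and 4 with a positive fold change (median 0.44). Its tested members included Ehmt1, a histone methyltransferase. The matrix and TGF-beta list had 5 members, of which Smad1 and exon 4 of Zfyve9 were tested. Zfyve9, which encodes an anchor for SMAD proteins, had a log2 fold change of -0.07 that became 0.02 with the smaller pseudocount. No macrophage or cholangiocyte marker had a single-exon circRNA, and the 3 of endothelial genes, among them Stab1 exon 65 and Eng exon 2, were below the limit of 6 libraries.

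The 3 shortest tested exons were Arhgap21 exon 6 (140 nt), Gsta3 exon 6 (142 nt) and Emg1 exon 3 (142 nt). Arhgap21, a GTPase-activating protein gene, was at 10.8 to 12.5 SRPBM in 3 PZH libraries and listed at 0 in the other 3, and was above 0 in 5 Control libraries (9.90 to 22.6). Gsta3, a glutathione transferase gene, was above 0 in 4 libraries of each group, at up to 6.37 SRPBM. Emg1, a ribosome assembly gene, reached 2.57 SRPBM. The 3 longest tested exons were those of Tcf20 (5772 nt), Mtdh (4087 nt) and Dlgap4 (3522 nt), whose means were 1.15, 3.10 and 2.45 SRPBM. The Mtdh and Dlgap4 exons are annotated in transcripts without a coding sequence. The share of members above 0 in at least 6 libraries was 19.8% for exons of 137 to 218 nt, 22.7% for 219 to 344 nt, and 38.2% both for 347 to 641 nt and for 651 nt or longer. Exon 2 members averaged 4.66 SRPBM and members from exon 3 or later 2.21 SRPBM.

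Whether single-exon circRNAs changed relative to the other circRNAs of the same gene was tested in 110 host genes as a log2 ratio of the 2 sums, with the same pseudocount added to each. None of the 110 passed an adjusted p of 0.05 in limma (0%), and 6 had an unadjusted p under 0.05 (5.45%). The largest fall was in Arhgap21, with a log2 ratio difference of -3.26 ± 1.27 (SE) and an adjusted p of 0.575 in limma. There, the single-exon sum was above 0 in 3 of 6 PZH libraries. Prrc2b (-1.85) and Gbe1 (-1.83) also had lower ratios in PZH. In Gbe1 the single-exon sum had a median of 0.535 SRPBM in PZH and 4.41 in Control, while its other circRNAs had medians of 256.0 and 214 SRPBM. Gbe1 passed when Control 4 was left out (adjusted p = 0.0418 in limma). On the higher side, Matr3, an RNA-binding nuclear matrix gene whose exon has a second possible host, had a difference of 1.64, Depdc7 of 1.47 and Vps13b, a lipid transfer protein gene, of 1.24. Their adjusted p was 0.575 to 0.699 in limma.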

How the data were processed

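RNA from 12 mouse livers (6 PZH, 6 Control) was extracted with Trizol and made into libraries with a TruSeq RNA kit for Illumina sequencing, per the labels' protocols. Trim Galore, STAR and GRCm38 (mm10) are named per the submitters' processing notes. Not given in the sources used here are the circRNA caller, its filters, all versions and how SRPBM was computed. The deposited table holds signal, already normalized by the authors to SRPBM. Low values lay at whole steps for 56.8% to 63.8% of entries per library (within 0.05 below and 0.1 above), so whole reads were not recovered and no count model was used. Depth is otherwise unknown.

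Junctions were matched to exons of GENCODE M21 on the same assembly. Exon numbers, places and introns refer to 1 matching transcript. Comparison exons were the other internal exons of these transcripts. The ends of 39 members also fit different exons of another transcript (35 of them 2 neighbouring exons), 29 were annotated only in retained-intron transcripts, and 8 had a second possible host.

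Levels were tested on the whole table with limma 3.58.1 (R 4.3.3) on log2(SRPBM + 0.636), the variance trend on, for circRNAs above 0 in at least 6 of 12 libraries, 2-sided, with Benjamini-Hochberg adjustment over 3870 circRNAs and a threshold of 0.05. The pseudocount is the median of the smallest values above 0. Library values were compared with exact permutation tests in scipy 1.17.1, over all assignments between groups or all 4096 sign patterns within libraries. Python 3.11.15 with pandas 2.3.3, numpy 2.4.6 and matplotlib 3.10.9 served for tables and plots. On simulated data, limma recovered 48% of 2-fold and 87% of 4-fold changes, with 5 false calls. The simulation gave all circRNAs the same spread setting and added no values of 0 to abundant ones, unlike the real table. These rates therefore cannot be taken as the power in these data.

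Named members were the 10 highest by mean, the 8 with the smallest p in each direction, the 3 shortest and 3 longest tested, the 2 highest of each list, and the 3 host genes with the smallest p per direction for the ratio. Some members that this rule takes are not reported here. Members and lists were chosen with earlier results of these data known. Means ± SD are given for members above 0 in every library. Alternatives changed the pseudocount, the filter or the scaling, added a replicate block, dropped the variance trend, used an exact rank-sum test, or left out each library in turn. Leaving out the 10 highest members was added after the data were seen.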

Additional observations from a re-analysis of the deposited data

Results flagged for a closer look

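In 10 of 82 groups of 6 library values, the highest or lowest library stood apart from the rest by Dixon's test. The usual rate of about 1 flag in 20 by chance does not apply to groups with only 1 library above 0, which the test always flags. PZH 2 was high for Mob3b exon 2 (39.4 SRPBM, next 18.1). Zfp609 exon 2 was high in Control 1 (26.3, next 17.1). Values listed at 0 stood apart from the rest for the Gm20521/Pabpn1 exon in Control 4 (0, next 53.7), Hivep1 exon 2 in PZH 6 (0, next 9.77) and the Cul5 exon in PZH 3 (0, next 6.34). In the remaining 5 groups only 1 library was above 0: Dlc1 exon 2 in Control 4 (2.81 SRPBM), Ercc6 exon 5 in PZH 6 (3.02), Stab1 exon 65 in PZH 6 (4.52) and in Control 5 (0.877), and Eng exon 2 in Control 5 (1.47).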

How the results depend on the processing

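The lower share of single-exon circRNAs in PZH passed an adjusted p of 0.05 in the exact permutation test in each alternative run but the replicate block. The differences were -0.453 to -0.377 points when 1 library was left out. Without the 39 members whose ends also fit different exons of another transcript, the difference was -0.358 points. Of those 39, 14 were tested in limma and 2 had a positive fold change (14.3%, against 44.9% of all members tested), with a median of -0.27. Replicate numbers are shared by the groups, and the sample titles do not say whether they pair the mice. Same-numbered libraries correlated at r of -0.122 to 0.0299, with 0 of 6 pairs over 0.1, a check that cannot exclude a pairing. With the number as a replicate block the share difference of -0.422 had an exact permutation p of 0.0313, the smallest that 6 pairs allow, and an adjusted p of 0.125 over the 4 comparisons, and 0 members passed in limma. With circRNAs above 0 in at least 3 libraries, 10 members were higher and 22 lower at an unadjusted p under 0.05 in limma. With those above 0 in all 12, 1 member passed (Mob3b), 1 was higher and 4 were lower. Leaving out 1 library gave 4 to 10 higher and 8 to 14 lower, and 0 to 1 host ratios passed. The level against circRNAs of 2 exons was 0.014, and the difference in the share above 0 was 2.14 points, among circRNAs above 0 in at least 6 libraries, of which a larger part of the single-exon than of the 2-exon class remains. The level was -0.52 without the 10 highest members, which by construction lowers 1 class only and says nothing of the comparison. The log2 ratio to circRNAs of 2 exons was -0.0040 to 0.0252 without 1 library and -0.0361 without the 10 highest members. Positive members were 42.3% and 41.8% under the other scalings, and 42.1% to 51.0% without 1 library, the highest without PZH 5. The exact rank-sum test made 0 calls, and its smallest adjusted p was 0.322, since few circRNAs had groups fully apart.

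Of the members named, signs turned for 10, none of which had passed; the fold changes of Med13 (0.50) and Cul5 (-0.26) were the furthest from 0 among them. Leaving out 1 library gave -0.0232 to 0.12 for Thrb, -0.0201 to 0.12 for Insr, -0.29 to 0.0529 for Fbxw7, -0.29 to 0.74 for Med13, -0.94 to 0.36 for Cul5, -0.43 to 0.0975 for Mtdh, -0.35 to 0.42 for Gsta3, -0.55 to 0.26 for Dlgap4, -0.39 to 0.31 for Zfyve9 and -0.15 to 0.39 for Tcf20. Scaling to equal sums gave -0.00325 for Thrb and -0.0536 for Gsta3, median-of-ratios scaling gave -0.0363 for Gsta3, and the halved pseudocount gave 0.0179 for Zfyve9. The cause of these moves was not tested. At this depth 464 of 660 members did not reach 6 libraries and have no test.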
